A study of Mus musculus with 12 samples.

Results

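The 10 genes described here mark the interneurons of the striatum, the minority of local-circuit neurons that sit among its medium spiny projection neurons: Lhx6, Lhx8, Kit, Nos1, Pvalb, Sst, Npy, Chat, Cck and Calb2. They were followed through 4 lists of H2A.Z peaks, and a peak belonged to a gene when the authors' annotation named that gene, at any distance. Of 59069 peaks in the 4 lists, 14 carried one of these names, and 8 of the 10 genes were named at least once. The tissue was mouse nucleus accumbens, the ventral part of the striatum, in 4 conditions of 3 samples each. SC had saline and later cocaine, CS had cocaine and later saline, CC had cocaine on both occasions and SS had saline on both. The labels call the SC, CS and CC lists acute, withdrawal and challenge, and give no strain, dose, interval, age, sex or batch. Each condition has 1 peak list and no values per sample, so nothing below has a replicate error and no test between conditions was possible.

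H2A.Z is a histone variant that exchange complexes place into the nucleosomes flanking transcription start sites, mostly at CpG-rich promoters. Striatal interneurons fall into a few classes. Cholinergic cells make acetylcholine with choline acetyltransferase, fast-spiking cells contain parvalbumin, another class makes somatostatin, neuropeptide Y and nitric oxide together, and others contain calretinin or cholecystokinin. Many of them arise from the medial ganglionic eminence under the LIM homeobox factors Lhx6 and Lhx8. An H2A.Z peak in bulk tissue does not show which cells carry it, fewer cells with H2A.Z and less H2A.Z per cell cannot be told apart, and a peak does not measure expression.

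The lists differed in size and in peak shape. SC held 23170 peaks with a median width of 727 bp, CS 6417 peaks of 110 bp, CC 4827 peaks of 107 bp and SS 24655 peaks of 734 bp. Listed q-values reached 0.000572 in SC, 0.0510 in CS, 0.0625 in CC and 0.000544 in SS, so the CS and CC lists were shorter, narrower and less stringent. Their part in the results below was not tested. Counts repeated with a stricter q and with lists of equal length are given below, and peak width was not varied. A promoter peak is one whose middle lay within 1000 bp of the assigned transcript start. Coordinates are on mm10 as the lists give them. The fold enrichment of a peak is the authors' ratio over background, and it is used only to place a peak within its own list. Among all protein-coding genes the shares with a promoter peak were 50.9% in SC, 17.2% in CS, 13.5% in CC and 53.4% in SS. Markers of medium spiny neurons had promoter peaks at 7 of 10 genes in SC, 0 in CS, 0 in CC and 9 in SS. Of 5 microglial markers none had a promoter peak in any list, and of 5 oligodendrocyte markers 1 had one in SC, 0 in CS, 0 in CC and 1 in SS. Of 5 astrocyte markers 2 had one in SC, 0 in CS, 0 in CC and 2 in SS, and of 4 endothelial markers 2 had one in SC, 1 in CS, 0 in CC and 3 in SS. Of the 20 exact binomial 95% intervals of these shares, 18 hold the share of all genes. The exceptions are in SS, for medium spiny neurons (55.5 to 99.7%) and microglia (0 to 52.2%). With at most 10 genes in a group, even a count of 0 in CS or CC could not put the interval below the share of all genes.

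The promoter sequences of 4 genes are shown because they carry the contrast between start sites that lay under a peak and start sites that did not. Each is a RefSeq window of 300 bases on GRCm38.p6, the assembly that mm10 names, running from 250 bases before a start to 50 after it, 5′ to 3′ on the gene's strand. Capitals mark each CpG dinucleotide. The table held windows for 9 of the 10 genes, Calb2 being the exception. The Pvalb window at chr15:78204188-78204487 (minus strand) lay whole under the SC and the SS peak, the one at chr15:78206351-78206650 (minus strand) under no peak. The Npy window at chr6:49822460-49822759 (plus strand) lay whole under the SS peak alone. The Kit window at chr5:75574737-75575036 (plus strand) lay whole under the SS peak, with 81 bases under the SC peak. The Sst window at chr16:23890795-23891094 (minus strand) lay under no peak.
Pvalb, covered start: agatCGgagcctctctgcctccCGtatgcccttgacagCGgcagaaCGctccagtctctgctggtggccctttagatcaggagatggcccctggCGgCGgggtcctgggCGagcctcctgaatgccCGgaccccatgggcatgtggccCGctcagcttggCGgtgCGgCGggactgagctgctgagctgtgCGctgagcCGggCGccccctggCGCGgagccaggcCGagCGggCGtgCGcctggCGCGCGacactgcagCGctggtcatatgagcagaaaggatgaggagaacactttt
Pvalb, uncovered start: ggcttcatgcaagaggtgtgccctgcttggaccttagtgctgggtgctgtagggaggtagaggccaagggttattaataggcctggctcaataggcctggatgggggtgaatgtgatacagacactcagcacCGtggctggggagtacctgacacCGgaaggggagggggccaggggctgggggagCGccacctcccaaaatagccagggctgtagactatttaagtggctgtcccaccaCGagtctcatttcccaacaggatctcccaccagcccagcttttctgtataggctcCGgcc
Npy: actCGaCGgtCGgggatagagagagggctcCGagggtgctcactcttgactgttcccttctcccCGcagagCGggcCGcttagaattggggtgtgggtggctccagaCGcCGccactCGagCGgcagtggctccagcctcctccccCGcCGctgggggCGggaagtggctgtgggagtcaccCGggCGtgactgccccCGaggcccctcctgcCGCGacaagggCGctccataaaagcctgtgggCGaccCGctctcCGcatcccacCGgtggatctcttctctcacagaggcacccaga
Kit: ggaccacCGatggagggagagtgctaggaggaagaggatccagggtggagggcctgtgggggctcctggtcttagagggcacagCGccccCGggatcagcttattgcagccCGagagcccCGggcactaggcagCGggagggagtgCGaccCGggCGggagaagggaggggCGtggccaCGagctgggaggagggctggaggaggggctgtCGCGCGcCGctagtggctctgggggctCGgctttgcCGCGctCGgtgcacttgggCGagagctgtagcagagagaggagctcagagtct
Sst: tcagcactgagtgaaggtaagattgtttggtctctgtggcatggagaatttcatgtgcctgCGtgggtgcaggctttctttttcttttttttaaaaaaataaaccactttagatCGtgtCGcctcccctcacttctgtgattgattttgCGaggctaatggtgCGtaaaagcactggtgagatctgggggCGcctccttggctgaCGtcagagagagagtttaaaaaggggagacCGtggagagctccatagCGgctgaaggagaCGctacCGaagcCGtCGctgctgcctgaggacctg

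The covered start of Pvalb had 25 CpGs and 67.7% GC, against 5 CpGs and 58.3% GC at the start under no peak. Npy had 24 CpGs and 68.0% GC, and Kit 20 CpGs and 69.0% GC. Sst, with no peak, had 13 CpGs and 50.3% GC. Over all 13 windows of the 9 genes, the 4 under an SC peak (1 of Lhx6, 2 overlapping ones of Kit, 1 of Pvalb) had a median of 68.3% GC, and the 5 under an SS peak, which add Npy, had 68.0%. No window was under a CS or CC peak. Among the 21262 windows of protein-coding genes the same direction held: the median GC content was 63.0% under an SS peak and 48.7% elsewhere, and the median ratio of observed to expected CpGs was 0.791 under an SS peak and 0.215 elsewhere. Windows under a peak made up 51.0% of them in SC, 6.32% in CS, 4.45% in CC and 53.7% in SS. CpG content did not by itself separate covered from uncovered windows among the interneuron genes: a Lhx6 window with 17 CpGs and a ratio of 0.791 lay under no peak, while the Lhx6 window that was partly covered, with 122 bases under the SC peak and 97 under the SS peak, had 16 CpGs and a ratio of 0.579.

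**Figure D1:**
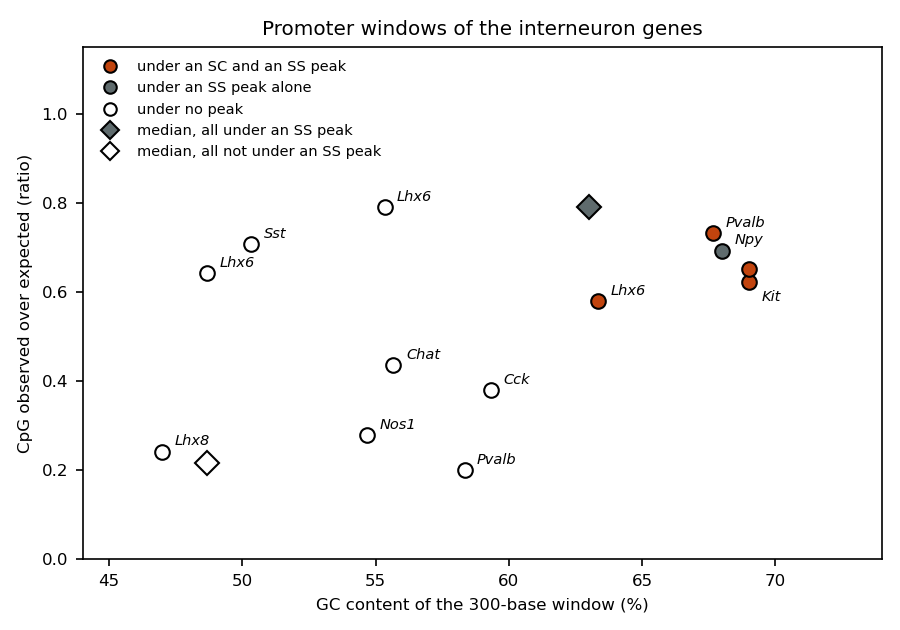
GC content (x axis, %) and the ratio of observed to expected CpGs (y axis) of the 13 RefSeq promoter windows of 9 interneuron genes, drawn as circles, with diamonds for the medians of all protein-coding windows under and not under an SS peak. The 5 covered windows lie at 63.3% GC or above, and the 8 uncovered windows at 59.3% or below.

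The letters of 6 motifs were searched in these windows on both strands. The cAMP response element TGACGTCA was found in Sst, with its first base 48 bases upstream of the start, and in no other window of these genes; 1.79% of all 32851 promoter windows hold it. The AP-1 letters TGACTCA or TGAGTCA were found in the partly covered Lhx6 window alone among these genes (5.20% of all windows). Their first base was 181 bases upstream of the start, in the part of that window under no peak. The E-box CACGTG was found in Cck and Chat (7.15%). The GC box GGGCGG was found in 5 of the 13 windows, those of Kit, Npy and Lhx6 (35.7% of all windows). Neither the LIM homeobox core TAATTA (5.29%) nor the Nkx2-1 letters CACTTGA (3.06%) occurred in any of the 13. Such matches describe the letters only.

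Promoter peaks stood at 5 of the 10 interneuron genes in SC, at 0 in CS, at 0 in CC and at 8 in SS, where the shares of all protein-coding genes were 50.9%, 17.2%, 13.5% and 53.4% in that order. The exact binomial (Clopper-Pearson) 95% intervals of the members' shares were 18.7 to 81.3% in SC, 0 to 30.8% in CS and in CC, and 44.4 to 97.5% in SS, and each holds the share of all genes. These intervals cover the counting of genes only. With 10 genes even a count of 0 reaches 30.8%, so they could not have shown a shortfall in CS or CC. Lhx6, Lhx8, Pvalb, Kit and Nos1 had a promoter peak in SC and in SS. Npy, Cck and Calb2 had one in SS and in no other list, and Sst and Chat were named by no peak.

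**Figure D2:**
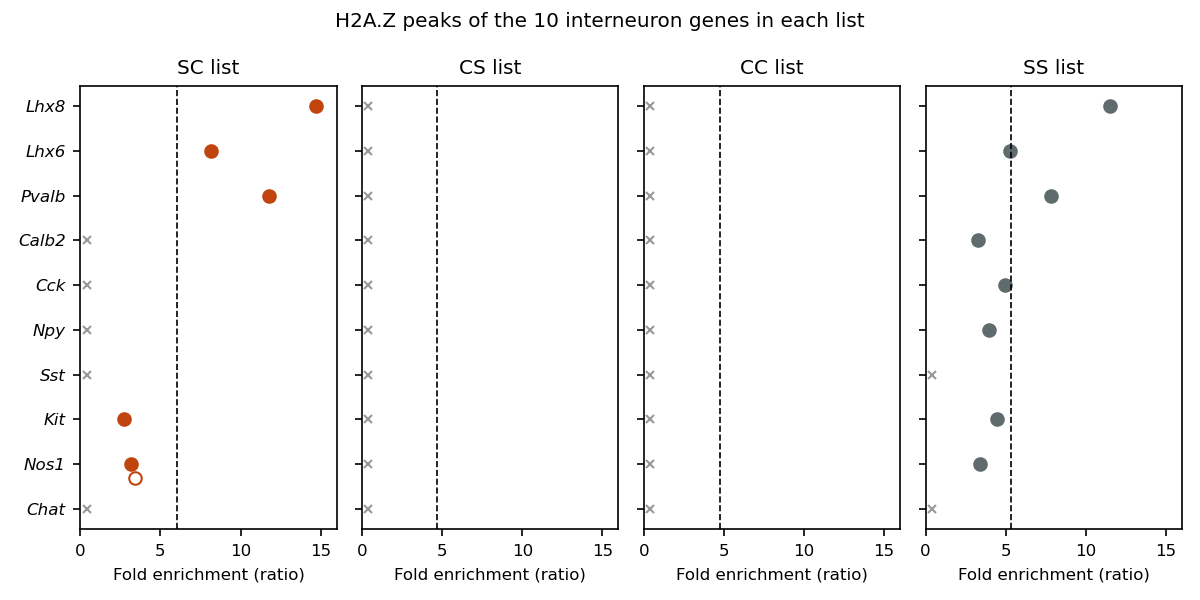
Authors' fold enrichment (x axis, ratio) of every peak named for the 10 interneuron genes (rows) in the SC, CS, CC and SS lists (panels). Filled circles are promoter peaks, the open circle is the Nos1 peak 2222 bp upstream of a start, crosses mark genes with no peak, and the dashed line is the median fold enrichment of all promoter peaks of that list (6.03 in SC, 4.68 in CS, 4.78 in CC and 5.30 in SS); the CS and CC panels hold crosses only.

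The LIM homeobox genes included the strongest peaks of the 10 genes. Lhx8 (ENSMUSG00000096225), which specifies cholinergic neurons, had a fold enrichment of 14.7 in SC (chromosome 3, 154328201 to 154328905) and 11.5 in SS (154328142 to 154328922). These peaks were stronger than 97.3% of the SC promoter peaks and 95.8% of the SS promoter peaks, the highest place of any of the 10 genes in either list. Both lay at the start of a transcript inside the gene, with the peak middle 2.01 kb (SC) and 2.03 kb (SS) downstream of the RefSeq start of Lhx8, whose own promoter window was uncovered and had 4 CpGs. Lhx6 (ENSMUSG00000026890), needed for parvalbumin and somatostatin interneurons, had 8.16 in SC (chromosome 2, 36104860 to 36105480) and 5.27 in SS (36105019 to 36105455). It stood above 62.6% of SC and 49.4% of SS promoter peaks, and above 74.5% of all SC and 65.5% of all SS peaks. The SC peak of Lhx6, 620 bp wide, contained the whole SS peak of 436 bp.

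The genes of calcium-binding proteins differed from each other. Pvalb (ENSMUSG00000005716), encoding the parvalbumin of fast-spiking cells, had 11.8 in SC (chromosome 15, 78204055 to 78204559) and 7.84 in SS (78203984 to 78204600), above 83.3% of SC and 71.9% of SS promoter peaks. The SC peak lay wholly inside the SS peak and took up 81.8% of it. The peak middles were 70 bp (SC) and 55 bp (SS) upstream of a RefSeq start, the covered one shown above. They were 2.09 kb (SC) and 2.11 kb (SS) downstream of the farthest upstream RefSeq start of the Pvalb gene, the uncovered one shown above. Calb2 (ENSMUSG00000003657), encoding calretinin, had an SS peak of 3.29 (chromosome 8, 110168049 to 110168370, q = 1.77e-07) whose middle was 1 bp from the start. That peak was 321 bp wide, the shortest width in the SS list, and 8.93% of the SS promoter peaks were weaker. No SC peak overlapped it.

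Of the receptor and enzyme genes, Kit and Nos1 had promoter peaks, each below the median promoter peak of its list, and Chat had none. Kit (ENSMUSG00000005672), the receptor tyrosine kinase for stem cell factor, had 2.72 in SC (chromosome 5, 75574955 to 75575306, q = 0.000200) and 4.44 in SS (75574520 to 75575949, q = 8.45e-19). The SC peak began at the start site and covered 24.6% of the SS peak, which was 1429 bp wide, wider than 94.7% of SS peaks. Only 1.91% of SC promoter peaks were weaker than that of Kit, against 32.6% in SS, so it was the member that stood lowest in SC. Nos1 (ENSMUSG00000029361), the neuronal nitric oxide synthase, had 3.19 in SC (chromosome 5, 117841779 to 117842526) and 3.39 in SS (117841899 to 117842492) at the upstream one of its 2 starts named in the lists, low in both (7.81% of promoter peaks weaker in SC, 10.9% in SS). The SS peak was 24.3 kb from the RefSeq start of Nos1, whose own promoter window was uncovered. Nos1 also had the single peak of these genes outside the 1000 bp promoter window, in SC (117864618 to 117865166, fold enrichment 3.39). Its middle was 2222 bp upstream of another start, the authors' region class for it was Promoter3k, and no peak in CS, CC or SS overlapped it.

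Chat, encoding choline acetyltransferase, had no peak of its own name. The gene of the vesicular acetylcholine transporter, Slc18a3, lies inside the Chat locus and shares its regulation as the cholinergic gene locus. SS peaks named Slc18a3 stood at chromosome 14, 32464449 to 32464812 (3.17) and 32463727 to 32464076 (2.68), with middles 1.28 and 2.01 kb downstream of the RefSeq start of Chat. The nearest peak to that start was 47.1 kb away in SC, 306 kb in CS, 264 kb in CC and 1.10 kb in SS. The SS peaks were weak, stronger than 14.1% and 1.90% of SS peaks.

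The neuropeptide genes had no promoter peak in SC. Npy (ENSMUSG00000029819) had an SS peak of 3.98 (chromosome 6, 49821997 to 49822867, q = 5.32e-13), centred 278 bp upstream of the start, the farthest upstream of the 8 SS peaks. Its nearest SC peak was 114 kb away. Cck (ENSMUSG00000032532) had an SS peak of 4.93 (chromosome 9, 121494199 to 121494667, q = 2.08e-18), 77 bp downstream of a start that lies inside the gene as RefSeq draws it. The RefSeq start of Cck, 1.03 kb from that peak, was uncovered. Sst was named by no peak and had none within 6 kb of its RefSeq start in any list.

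**Figure D3:**
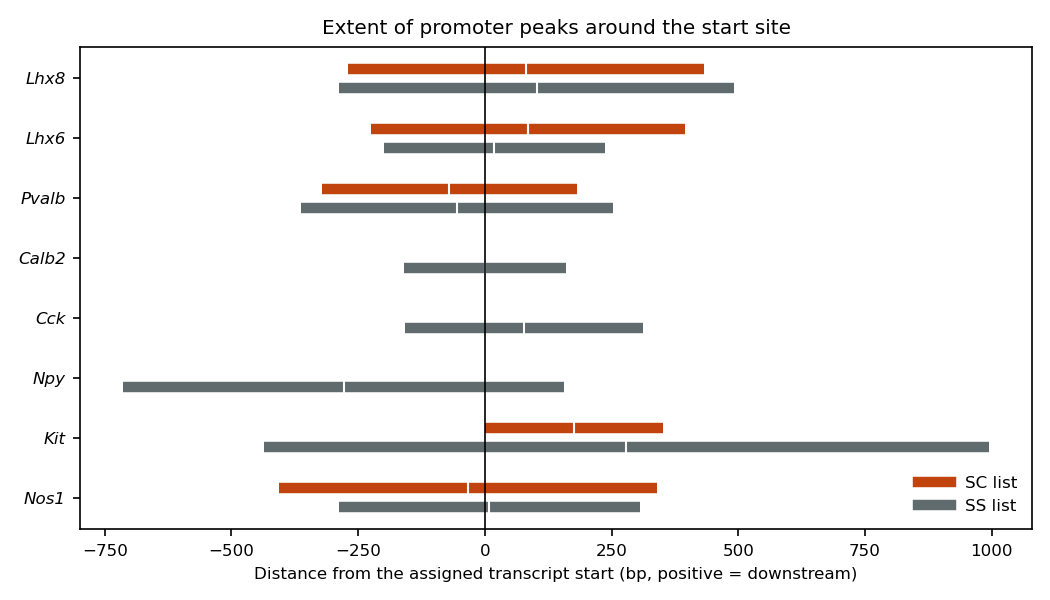
Extent of each promoter peak in SC (upper bar) and SS (lower bar) of the 8 interneuron genes that have one, as distance from the assigned transcript start (x axis, bp, positive downstream); white ticks mark peak middles. Apart from the SC peak of Kit, which begins at the start site, the bars span the start, and Calb2, Cck and Npy have an SS bar alone.

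Set against SS, the SC list held 5 of the 8 interneuron genes with an SS promoter peak (62.5%, exact binomial 95% interval 24.5 to 91.5%), where 88.2% of all SS promoter genes were held, a share within that interval. With a −log10 q of at least 5, Kit left the SC list. Then 4 of 8 were held (50.0%, 15.7 to 84.3%), against 88.3% of all SS promoter genes, which lies above the interval. That change rests on Kit alone, and the share of all genes was not matched for strength. With lists of equal length 2 of 2 were held (15.8 to 100%), and the 86.4% of all SS promoter genes lies within that interval. The 3 that were absent from SC, Calb2, Npy and Cck, had SS fold enrichments of 3.29 to 4.93 (median 3.98), against 3.39 to 11.5 (median 5.27) for the 5 held. Over all genes the median SS fold enrichment was 3.87 for the 1598 genes absent from SC and 5.99 for the 11987 held. When SS promoter genes were divided into 5 equal groups by strength, Calb2, Nos1 and Npy fell in the weakest, of which 66.0% were held in SC, and Nos1 was the 1 held. Cck and Kit fell in the second group (87.9% held), with Kit held and Cck not. Lhx6 in the third group (92.7% held), Pvalb in the next (97.0%) and Lhx8 in the strongest (97.6%) were held. No interneuron gene had a promoter peak in SC and none in SS, a pattern shown by 7.42% of SC promoter genes.

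The CS and CC lists held 0 of the same 8 genes each (exact binomial 95% interval 0 to 36.9%), where CS held 28.8% and CC 22.7% of all SS promoter genes. Both shares lie within that interval, which is the lowest that 8 genes can give, so it could not have fallen below either share. By strength group, from weakest to strongest, CS held 10.6%, 31.9%, 44.6%, 26.4% and 30.7% of SS promoter genes, and CC held 7.40%, 25.1%, 34.9%, 21.1% and 25.0%. Lhx6 belonged to the group held most often and was found in neither list, and Calb2, Nos1 and Npy belonged to the group held least often. At peak level, none of the 6 SC and 8 SS peaks of these genes was overlapped by a CS or CC peak under any name. For all peaks, CS overlapped 20.3% of SC and 20.3% of SS peaks, and CC overlapped 15.9% of SC and 15.7% of SS peaks. The median distance from the RefSeq start of the 10 genes to the nearest peak was 4.25 kb in SC, 167 kb in CS, 325 kb in CC and 1.06 kb in SS. Over 17491 protein-coding genes the medians were 0.267 kb in SC, 74.1 kb in CS, 110 kb in CC and 0.118 kb in SS. These distances also depend on the number of peaks in a list, and the difference was not tested.

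**Figure D4:**
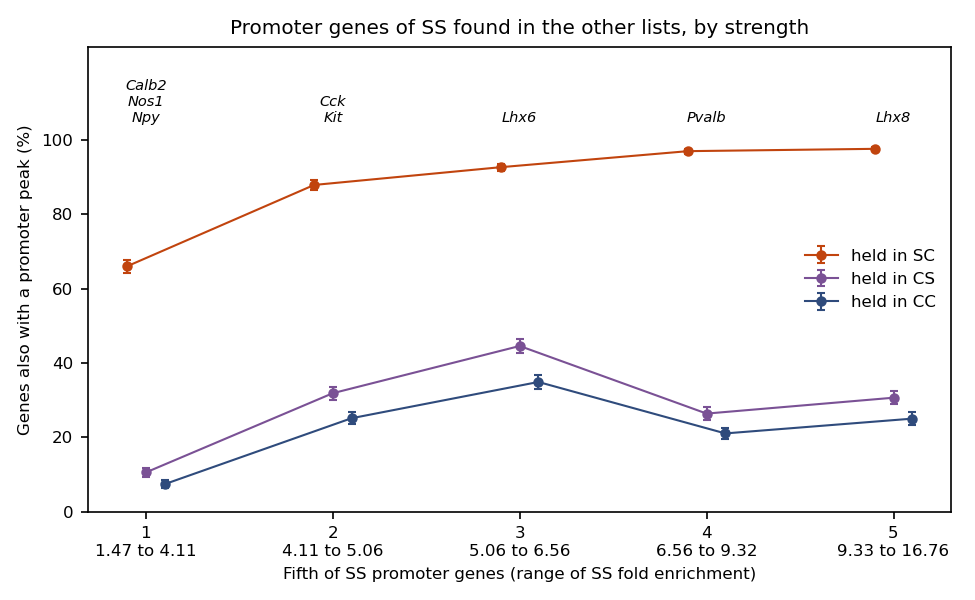
Share of SS promoter genes (y axis, %) that also had a promoter peak in SC, CS or CC, for 5 equal groups of SS promoter genes ordered by SS fold enrichment (x axis, with its range); bars are exact binomial 95% intervals that cover the counting of genes only. The interneuron genes of each group are named at the top: SC holds 66.0% of the weakest group and over 92% of the third to the fifth, and CS and CC hold most in the third.

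A further 56 genes of interneuron specification, transmitter phenotype and class identity were counted in the same way. Promoter peaks stood at 35 of them in SC (62.5%), 5 in CS (8.93%), 2 in CC (3.57%) and 43 in SS (76.8%). The shares of all protein-coding genes were 50.9%, 17.2%, 13.5% and 53.4% in that order, and the intervals of the further genes hold the first and the second of these, but not that of CC (0.435 to 12.3%) or SS (63.6 to 87.0%). With lists of equal length the order of SC and SS turned, with 13 in SC and 8 in SS. Of the 43 SS promoter genes 35 were held in SC (81.4%, exact binomial 95% interval 66.6 to 91.6%), 5 in CS (11.6%, 3.89 to 25.1%) and 2 in CC (4.65%, 0.568 to 15.8%). For all SS promoter genes the shares held were 88.2% in SC, inside the interval, and 28.8% in CS and 22.7% in CC, above it. Under 2 alternatives the CS and CC intervals hold the share of all genes. With a −log10 q of at least 5, CS held 1 of 42 (0.0603 to 12.6%, all genes 4.37%) and CC 0 of 42 (0 to 8.41%, all genes 3.57%). With lists of equal length, CS held 0 of 8 (0 to 36.9%, all genes 22.1%) and CC 1 of 8 (0.316 to 52.7%, all genes 23.1%). These are counts of genes that do not vary independently, in 1 list per condition, and no test of the conditions. The further genes were also chosen with earlier results of these data known. A share of all genes outside an interval therefore establishes no shortfall or excess in any list. Tac1 is on this list and among the medium spiny neuron markers.

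The strongest SS promoter peaks of these 56 genes were those of the synaptotagmin gene Syt2 (11.5 in SS), Slc10a4, a synaptic vesicle protein gene of cholinergic and monoaminergic neurons (15.1 in SC, 10.0 in SS), the LIM homeobox gene Isl1 (12.9 in SC, 9.24 in SS), Nos1ap, encoding an adaptor of neuronal nitric oxide synthase (11.0 in SC, 9.04 in SS), and the potassium channel gene Kcnc1 (10.6 in SC, 8.94 in SS). At Syt2 the SC peak over the same start (chromosome 1, 134646184 to 134646939, 15.9) was named for Gm26783, and the SC peak named Syt2 (2.97) lay at another start. These 5 genes had the commonest pattern of the interneuron genes, a promoter peak in SC and SS and none in CS or CC, agreeing in 4 of 4 lists. Of the genes with a promoter peak in any list, that pattern was found at 5 of 8 interneuron genes (62.5%, 24.5 to 91.5%), 28 of 43 further genes (65.1%, 49.1 to 79.0%) and 46.2% of all genes.

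Specification factors had promoter peaks at 10 of 17 genes in SC, 1 in CS, 0 in CC and 13 in SS. Among them Nkx2-1, which acts upstream of Lhx6 in the medial ganglionic eminence, had 8.26 in SC and 5.62 in SS. Cholinergic genes had them at 3 of 6 in SC, 0 in CS, 0 in CC and 5 in SS, and fast-spiking genes at 7 of 9 in SC, 1 in CS, 1 in CC and 8 in SS. Genes of GABA synthesis and transport had them at 2 of 4 in SC, 0 in CS, 0 in CC and 3 in SS, and neuropeptide, receptor and other class genes at 13 of 20 in SC, 3 in CS, 1 in CC and 14 in SS. All 20 exact binomial 95% intervals of these group shares hold the share of all genes given above, but the groups are small and the intervals wide. For specification factors in CC, 0 of 17 still gave 0 to 19.5%, around the 13.5% of all genes. Such intervals could rarely show a shortfall in CS or CC, and the counts describe the groups only. The 8 genes with an SS promoter peak and none in SC were the potassium channel gene Kcnc2 (4.02 in SS), the choline transporter Slc5a7 (3.97), Trh (3.60), Dlx5 (3.29), Slc18a3 (3.17), Dlx2 (3.05), Sox6 (2.80) and the GABA-synthesising Gad2 (2.39). Their median SS fold enrichment was 3.23, against 5.83 for the 35 held. In the cholinergic group SC thus held 3 of 5 SS promoter genes, Slc10a4, the acetylcholinesterase gene Ache (9.62 in SC) and the neurotrophin receptor gene Ngfr (7.84 in SC), and not Slc5a7 or Slc18a3. Slc5a7 and Slc18a3 fall in the weakest of the 5 SS strength groups, of which 66.0% of all genes were held, and Slc17a8 was in no list.

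Promoter peaks in CS stood at Maf (5.33, q = 4.75e-06), the Kit ligand gene Kitl (4.70, q = 0.000185), Chodl (4.35, q = 0.00422), the complexin gene Cplx1 (4.02, q = 0.0154) and the neuropeptide Y receptor gene Npy2r (3.56, q = 0.0493). Those in CC stood at Pthlh (5.44, q = 6.52e-05), encoding parathyroid hormone-like peptide, and the somatostatin receptor gene Sstr2 (5.42, q = 6.52e-05). Of all these peaks, only that of Maf reached a −log10 q of 5. Each of these 7 peaks overlapped the SS promoter peak of the same gene, and no gene had one in both lists.

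**Figure D5:**
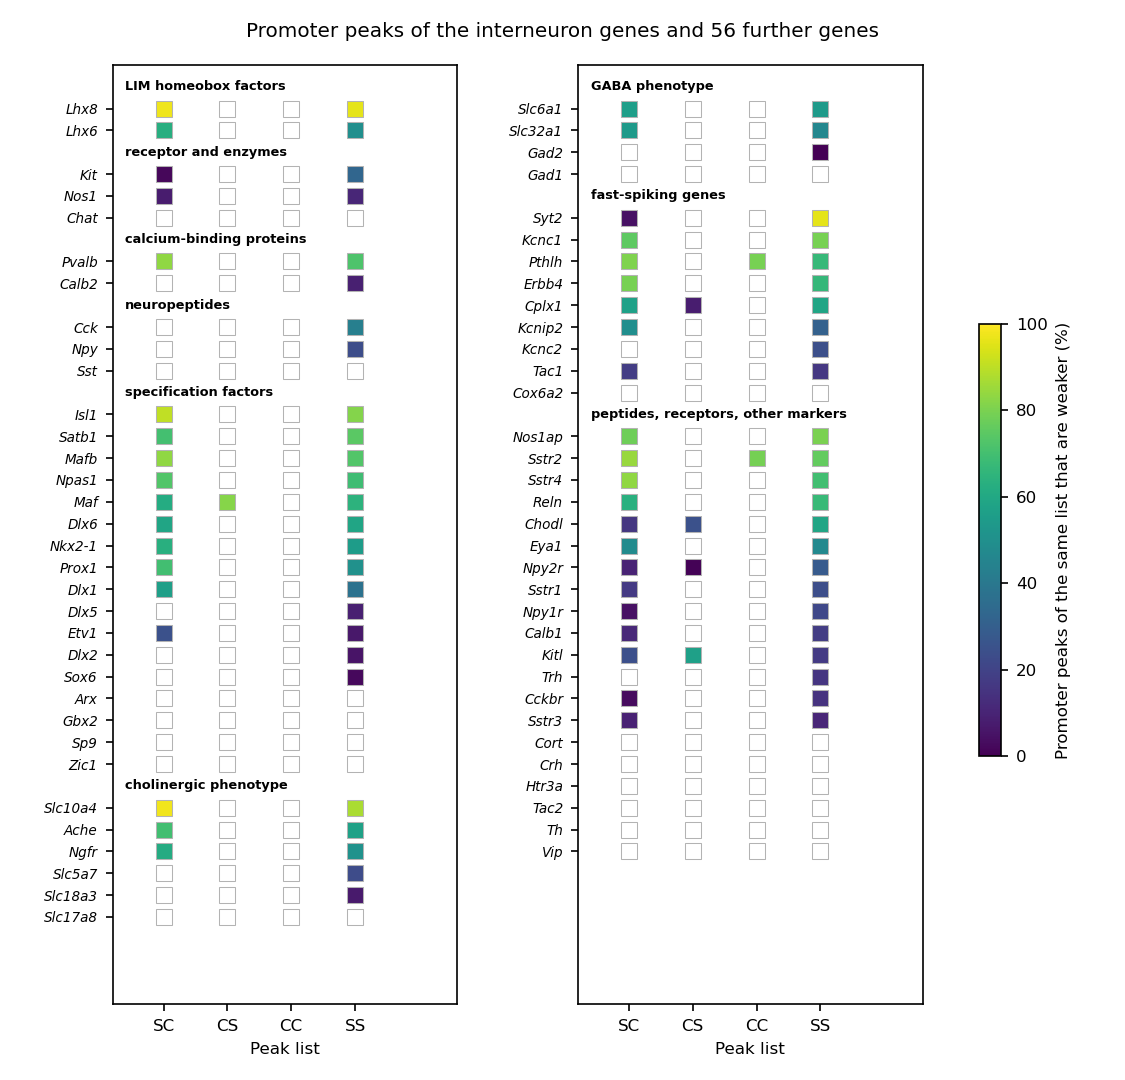
Promoter peaks of the 10 interneuron genes (4 upper groups, left) and 56 further genes (rows, by group and SS strength) in SC, CS, CC and SS (columns); colour is the share of promoter peaks of the same list that are weaker (%), and white means no promoter peak. SC and SS are filled at 35 and 43 of the further genes, CS at 5 and CC at 2.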

How the data were processed

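H2A.Z chromatin immunoprecipitation and sequencing of nucleus accumbens was represented by 4 annotated peak lists deposited by the authors, each named in the labels of all 3 samples of its condition; total histone H3, named in the design text, was not analysed here. The submitters' processing notes name mm10, cutadapt, HISAT, SAMtools and MACS2. Their versions and settings, the control library and any pooling of reads before calling were not given in the sources used here, and depth per sample was not analysed. Fold enrichment is the authors' ratio over background, per the file headers. Each peak also has a linear q-value, as the file headers of the deposited lists show. Named peaks come with a region class and a distance, which in all 48166 of them was the offset of the peak middle from the transcript start. Whether starts count from 0 or 1 is not stated.

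Lists were compared with bedtools 2.31.1 (overlap of at least 1 bp) and Python 3.11.15 with pandas 2.3.3 and scipy 1.17.1. Counting was tested on simulated data. Of 17685 transcript starts in the lists whose gene has a RefSeq promoter, 3829 equalled a RefSeq start exactly, 96 and 108 after a shift of 1 bp to either side. Protein-coding genes are the 21896 symbols of that type in RefSeq for GRCm38.p6. Of the 16758 gene names in the lists, 14941 are RefSeq symbols. A protein-coding gene listed under another name therefore counts as having no promoter peak in the shares of all genes, and the effect of this was not tested. The members and lists were chosen with earlier results of these data known. All 10 members are named; of the further genes, the rule names the 5 strongest in SS, those with a promoter peak in CS or CC, those in SS and not SC, and up to 5 that share the members' commonest pattern. Nkx2-1, Tac1, Slc17a8, Ache and Ngfr were named after their values were seen. A gene of the further list was left out of all counts and is not reported here. Alternatives were promoter windows of 500 and 3000 bp, a −log10 q of at least 5, lists cut to 4827 peaks, and other definitions of overlap.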

Additional observations from a re-analysis of the deposited data

How the results depend on the processing

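The counts of 0 interneuron genes in CS and CC were 0 under every alternative run, but most alternatives could not have changed them. No CS or CC peak was named for a member at any distance. Promoter windows of 500 and 3000 bp, a −log10 q of at least 5 and lists of equal length could therefore only return 0. Counting any overlapping peak could have added a gene, and it added 0. The counts of 0 carry less weight under the stricter q, where CS held 4.37% and CC 3.57% of all SS promoter genes. That q removed the SC peak of Kit, leaving 4 members in SC, a share of SS promoter genes whose interval lies below that of all genes. With only the 4827 strongest peaks of each list, 2 members (Lhx8 and Pvalb) had a promoter peak in SC and 2 in SS, and 2 SS promoter genes were held in SC. On the further genes, lists of equal length left 13 with a promoter peak in SC, 3 in CS and 8 in SS, of which 7 were held in SC, 0 in CS and 1 in CC, and 6 were in SC and not SS. The stricter q left 1 in CS and 0 in CC, and the same numbers held. Windows of 500 and 3000 bp each gave 1 further gene in SC and not SS, where 0 were found with 1000 bp. In all, 72 of 88 alternative values stayed within 1.5 times the count reported, and 16 did not. Many of the 72 were counts of 0 that stayed 0, including those that could not change, so the tally is no measure of stability. Of the 16, 10 came from lists of equal length. No replicate could be left out, since each condition has 1 list. No paired analysis was possible because the lists hold no values per sample.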

Other observations

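Peaks without a gene name stood near some of these genes. Upstream of Sst, 3 lists held an unnamed peak 6.5 to 7.1 kb from the RefSeq start: in SC at chromosome 16, 23898007 to 23898361 (fold enrichment 3.20), in CS at 23897820 to 23897955 (4.16, q = 0.00615) and in SS at 23897888 to 23898970 (3.51). The SC and CS peaks did not overlap each other, and both overlapped the SS peak. CC had no peak there. About 11 kb upstream of Cck, SC held an unnamed peak at chromosome 9, 121506781 to 121507147 (2.90) and SS one at 121506681 to 121507072 (2.81), so a weak upstream peak was listed in SC while the Cck promoter peak was not. An unnamed SC peak lay 9.52 kb upstream of Calb2 (3.10). Downstream of Pvalb, the promoter of Ift27 had a peak in SC (6.51), CS (4.93) and SS (3.34), the nearest CS peak to the Pvalb start, at 31.5 kb.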
